A study of Mus musculus with 4 samples.

Results

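The Dux and Duxbl homeobox genes of the mouse were described in 4 libraries of messenger RNA from embryonic stem cells (ESCs). The members are the genes listed under the symbols Duxf3, Duxbl1, Duxbl2 and Duxbl3, which are 4 of 24190 symbols and hold 17 of 58853 listed transcripts. They were chosen by symbol and not by a cut-off on a measured value, but earlier results of these data were known. All cells were of the male mouse ESC line E14 (ES-E14TG2a), kept in serum-free medium with 0.8 µM of a MEK inhibitor and 3.3 µM of a GSK3β inhibitor. Per the labels, each of 2 clonal lines carried a stably integrated reporter with the promoter of Zscan4c. The GFP line expressed GFP from it, whereas the GFP-Zscan4c line expressed GFP fused to Zscan4c. Sorting by fluorescence split each line into GFP-negative (pluripotent) and GFP-positive (2C-like) cells, the names in brackets being those of the labels. Each population is 1 library of 1 clone, so no replicate error can be given for any population, and a difference between the lines cannot be told apart from a difference between clones.

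Dux is a transcription factor with a pair of homeodomains, folds that read DNA through a recognition helix. In the mouse, copies of Dux lie in an array on chromosome 10 and are transcribed for a short time when the embryo's own genome is first switched on, and DUX protein then activates genes such as the Zscan4 cluster and the retrovirus MERVL. A small share of ESCs enters the same state at any moment, and these are the 2C-like cells. The Duxbl genes on chromosome 14 encode a related homeodomain protein, which in mouse cells has been described as a target of DUX that helps end the 2C-like state. The design asks whether cells sorted on the Zscan4c promoter differ in these genes, and whether that holds when GFP is carried by the fusion.

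Values are TPM, a length-scaled abundance, as deposited, and keep no read counts, so sequencing depth is unknown. Among the libraries, the one of GFP-negative GFP line cells was the sparsest, with 48.4% of symbols at 0 compared with 11.6% to 19.5% elsewhere, and a 0 in it is not read as absence. All 6 pluripotency markers were present, summing to between 2642 and 3359 TPM. The 7 markers of the 2C-like state summed to 5.64 and 12.1 TPM in GFP-negative and 855 and 1345 TPM in GFP-positive libraries. Zscan4c alone held 497 TPM in GFP-positive GFP line cells and 366 TPM in GFP-positive GFP-Zscan4c cells. Its promoter drove the sorted GFP and the fusion holds its sequence, so this rise was in part set by the design. Markers of primitive endoderm (3 of 5 listed), trophectoderm (3 of 5) and fibroblasts (3 of 5) summed to at most 0.509 TPM in GFP-negative libraries and to between 2.22 and 11.9 TPM in GFP-positive ones. The fibroblast sum was nearly all Thy1, at 11.9 and 7.27 TPM in the GFP-positive libraries, while the collagen genes Col1a1 and Col1a2 were at or below 0.114 TPM everywhere. These sums were higher in the GFP-positive libraries, as the members were, and their part in the results was not tested.

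The homeobox sequences show how the members are related, and they decide how far reads can be assigned to 1 gene. All sequences were read from GENCODE M21 transcripts on GRCm38. Each stretch below is 180 bases, or 60 codons, placed so that the codons in capitals encode the recognition-helix motif W-F-x-N-x-R with its tryptophan at position 48 of the homeodomain.
Duxf3-202, first homeobox: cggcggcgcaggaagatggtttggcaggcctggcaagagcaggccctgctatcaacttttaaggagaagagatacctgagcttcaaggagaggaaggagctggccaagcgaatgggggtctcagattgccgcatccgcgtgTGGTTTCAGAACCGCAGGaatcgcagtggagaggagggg
Duxf3-202, second homeobox: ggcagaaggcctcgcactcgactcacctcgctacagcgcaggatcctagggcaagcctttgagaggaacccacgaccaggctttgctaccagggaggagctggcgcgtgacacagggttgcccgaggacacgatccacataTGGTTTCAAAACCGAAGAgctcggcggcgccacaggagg
AW822073-202, second homeobox: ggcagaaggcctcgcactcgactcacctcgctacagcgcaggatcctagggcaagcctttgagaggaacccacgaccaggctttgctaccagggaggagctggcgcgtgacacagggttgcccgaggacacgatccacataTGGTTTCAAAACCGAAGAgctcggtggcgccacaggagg
Duxbl1-201, Duxbl2-201 and Duxbl3-201, one sequence: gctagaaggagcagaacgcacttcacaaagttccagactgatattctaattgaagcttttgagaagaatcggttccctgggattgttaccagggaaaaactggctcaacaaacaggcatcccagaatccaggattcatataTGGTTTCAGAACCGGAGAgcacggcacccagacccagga
The homeoboxes of Duxf3 shared 43.9% of their bases with each other. The second one shared 61.1% with the Duxbl homeobox found by this motif, and the first 47.2%. That Duxbl homeobox was the same in all 3 genes, base for base. AW822073, a neighbour of Duxf3 on chromosome 10 that is not a member, carried a second homeobox identical to that of Duxf3 at 179 of 180 bases. The motif was found at 1 place in the frame of each of these Duxbl transcripts and at 2 places in that of Duxf3-202. A homeodomain with other letters in this helix would be missed, so the search does not give the number of homeoboxes in Duxbl.

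Duxf3 is the gene of the Dux array that these tables list under the Dux name (chr10:58229979-58232675, minus strand, GRCm38). In the GFP line its level was 0.134 TPM among GFP-negative and 7.72 TPM among GFP-positive cells. The corresponding levels in the GFP-Zscan4c line were 0.378 and 7.36 TPM. Pairs of values below keep this order, GFP-negative first, with the GFP line before the GFP-Zscan4c line. Both GFP-positive libraries lay far above both GFP-negative ones, and the GFP-positive libraries were close to each other. As plain ratios, GFP-positive cells held 57.7 times and 19.5 times the GFP-negative level, ratios that turn on values near 0. On the log2(TPM + 1) scale, which understates changes of low genes, the differences were 2.94 and 2.60, and under quantile normalization they were 1.43 and 2.24. In bulk RNA, more cells that transcribe a gene and more RNA per cell cannot be told apart. In GFP-positive cells Duxf3 was a gene of middling abundance, above 63.0% and 61.3% of all symbols.

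Duxf3 has 2 listed transcripts, and the spliced one was listed above 0 only in GFP-positive libraries. Duxf3-202 is a single exon of 2025 bases with an open frame of 674 codons that holds both homeoboxes. Its levels were 0.134 and 4.55 TPM, then 0.378 and 3.78 TPM. Duxf3-201 has 2 exons, an annotated frame of 184 codons and no match to the recognition-helix motif. Neither GFP-negative library listed it above 0, and the GFP-positive libraries held 3.16 and 3.58 TPM, which is 41.0% and 48.6% of the Duxf3 total.

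**Figure D1:**
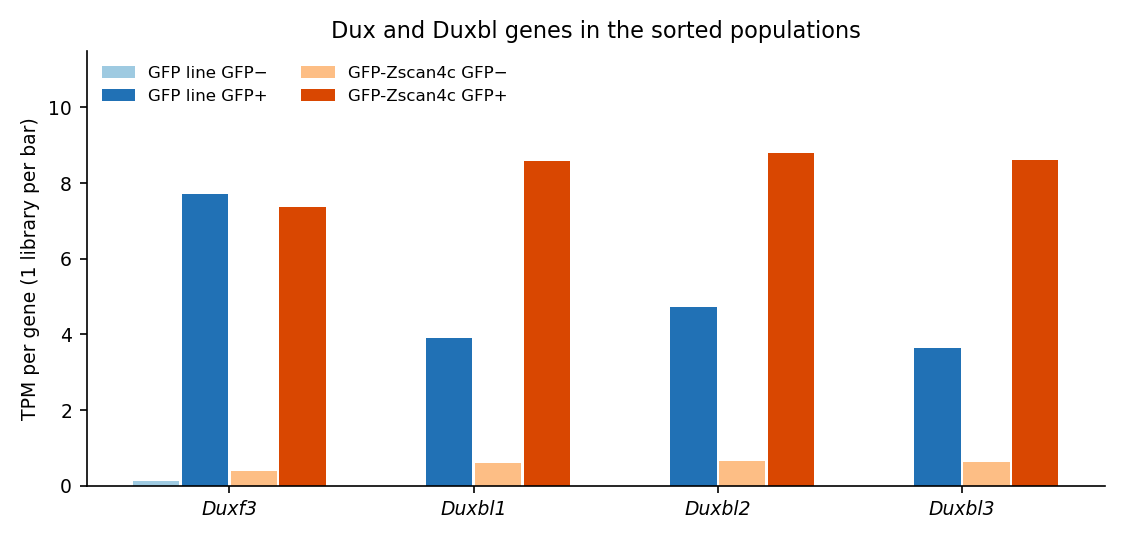
TPM summed over the listed transcripts of each gene, 1 bar per library, with no error bar because each population is 1 library. Duxf3 was at 7.72 and 7.36 TPM in the GFP-positive libraries, while each Duxbl gene was higher in the GFP-Zscan4c line (8.59 to 8.78 TPM) than in the GFP line (3.65 to 4.74 TPM).

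The window around the RefSeq start of Duxf3, 250 bases before and 50 after it, was looked at because Duxf3 and its neighbours were high in the same libraries. RefSeq places it at chr10:58233040-58233339 on the minus strand of GRCm38.p6, and the table of promoter sequences held no entry for Duxbl1, Duxbl2 or Duxbl3.
Duxf3 promoter window: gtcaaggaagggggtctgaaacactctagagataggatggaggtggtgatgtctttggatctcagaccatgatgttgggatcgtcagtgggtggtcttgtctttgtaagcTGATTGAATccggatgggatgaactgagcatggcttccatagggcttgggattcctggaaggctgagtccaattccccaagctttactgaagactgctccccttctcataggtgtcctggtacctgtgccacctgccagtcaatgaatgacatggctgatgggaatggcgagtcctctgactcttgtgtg
The capitals mark a match to TGATTNAAT, the core of the sequence that mouse DUX is known to bind, 140 bases before the RefSeq start. Both listed Duxf3 transcripts start outside this window, downstream at 58232675 (Duxf3-202) and 58232013 (Duxf3-201). The motif was searched on both strands, its reverse complement being ATTNAATCA, and a window holding overlapping matches of both forms was counted as 1. It was present in 236 of 32851 promoter windows of the same length, or 0.718%. The microsatellite run CACACACA or its reverse complement TGTGTGTG, searched because the series concerns Zscan4 and microsatellites, was in 4.09% of windows and not in that of Duxf3. A match is a string of letters and not a shown binding site.

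Duxf3 lies in a cluster of related genes that were high in the same libraries. Within 13.7 kb on chromosome 10 the annotation places AW822073, Gm10807, Duxf3 and Gm4981, all on the minus strand. Summed over the 4, the level was 0.685 and 27.8 TPM, then 1.09 and 28.1 TPM. The pseudogene Gm10807 was at 0.340 and 9.10 TPM, then 0.419 and 3.94 TPM. Gm4981, annotated as protein-coding, was at 0.0730 and 2.44 TPM, then 0.0149 and 1.39 TPM. Each gene of the cluster was higher in both GFP-positive libraries than in both GFP-negative ones.

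The leading transcript of AW822073 differed between the lines. The gene was at 0.138 and 8.54 TPM, then 0.274 and 15.4 TPM. Among GFP-positive cells the GFP line held 7.84 TPM of the long AW822073-202 (1959 bases, 652 codons) and 0.706 TPM of the short AW822073-201 (555 bases). The GFP-Zscan4c line held 0.634 TPM of the long form and 14.8 TPM of the short one. Between the GFP-positive libraries the TPM ratio was 1.80 in favour of the GFP-Zscan4c line, but weighted by transcript length, which follows the amount of sequence read, it was 0.602. The weighting was chosen after seeing the data.

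Reads of most of this cluster are hard to divide. Of all 50-base windows in the listed Duxf3 transcripts, 49.3% occurred in no transcript of another gene in GENCODE M21, and of 100-base windows 73.2% did. The genes that shared windows with Duxf3 were AW822073, Gm10807, Gm4981 and Gm19459, all on chromosome 10. For Gm10807 the share of 50-base windows found in no other gene was 13.1%, and for AW822073 it was 39.2%. Gm4981 shared least, with 90.6% of its 50-base windows found in no other gene. The read length is not given in the sources used here, and the count covers annotated transcripts, not further copies in the genome. The reference genome is that of C57BL/6J and not of E14 cells.

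Beyond the cluster, the chromosome 10 neighbours did not follow Duxf3 in both lines alike. Of 6 further listed genes within 500 kb, 3 of 4 that reached 5 TPM were at least 2-fold higher with GFP in the GFP line, against 33.2% of all genes, and all 3 started from a listed 0. For the fusion line it was 1 of 3, against 8.23%, and that gene, Gcc2, was the one higher in both. Gcc2, which encodes a golgin, was listed at 0 and at 5.02 TPM, then was at 3.21 and 7.89 TPM. Ranbp2, a nuclear pore gene, was listed at 0 and at 25.0 TPM, then was at 20.0 and 29.6 TPM. Lims1, a focal adhesion adaptor gene, was at 20.0 and 16.0 TPM, then 17.1 and 18.3 TPM.

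**Figure D2:**
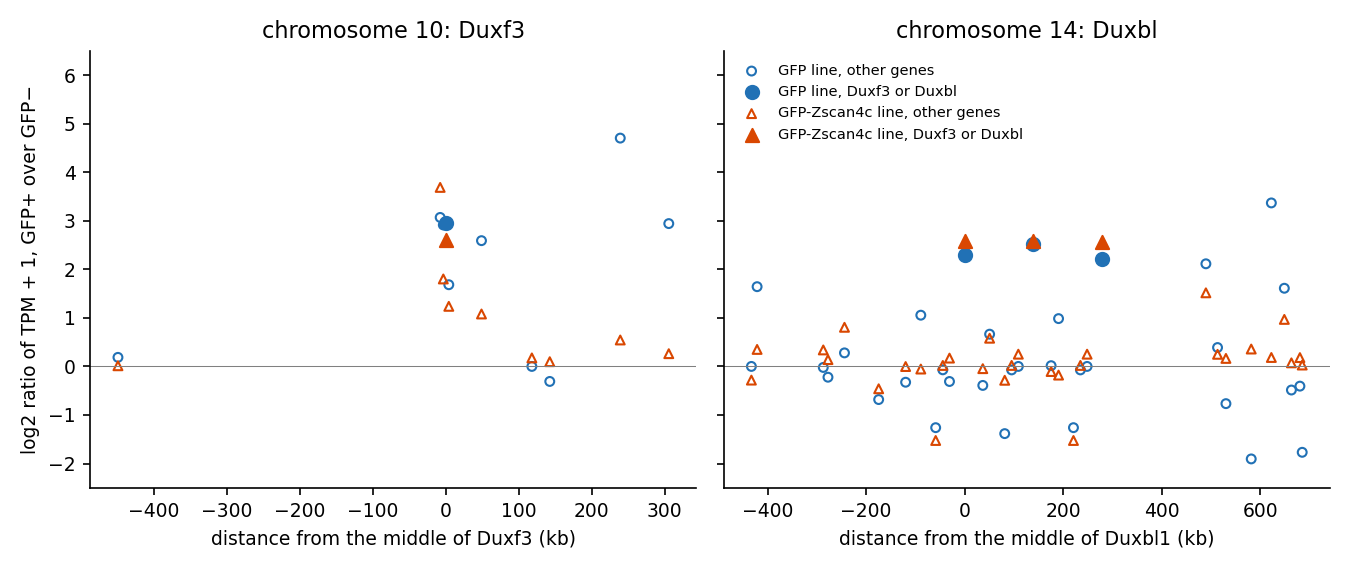
Log2 ratio of TPM + 1 in GFP-positive over GFP-negative cells for each listed gene within 500 kb of a member, against the distance in kb from the middle of Duxf3 (left) or Duxbl1 (right). Circles are the GFP line and triangles the GFP-Zscan4c line, filled for members. The cluster at 0 kb on chromosome 10 was high in both lines, while most genes around the Duxbl copies lay near 0 in the GFP-Zscan4c line.

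The Duxbl genes were also higher in GFP-positive cells. Duxbl1 (chr14:25978577-25990088, plus strand) was listed at 0 and at 3.90 TPM in the GFP line, then was at 0.592 and 8.59 TPM in the GFP-Zscan4c line. Duxbl2 (chr14:26118349-26129763) was listed at 0 and at 4.74 TPM, then was at 0.642 and 8.78 TPM. Duxbl3 (chr14:26257962-26269436) was listed at 0 and at 3.65 TPM, then was at 0.635 and 8.61 TPM. For each gene the order of the libraries was the same, with the GFP-Zscan4c line above the GFP line within either sort gate. The plain GFP-positive to GFP-negative ratios of the GFP-Zscan4c line were 14.5, 13.7 and 13.6, and for the GFP line no fold is given because the lower value was listed at 0. Of the symbols within 2-fold of Duxbl1 in GFP-negative GFP-Zscan4c cells, 49.7% were listed at 0 in GFP-negative GFP line cells.

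The 3 Duxbl genes cannot be told apart as separate sources of RNA. They start 140 kb apart within 291 kb, and their principal transcripts (201) share a coding sequence of 1050 bases, or 350 codons, with no difference in any pair. The principal transcripts of Duxbl2 and Duxbl3 had no substitution over 2312 aligned bases, while 24 bases of Duxbl3 had no counterpart. That of Duxbl1 had 1 substitution against either, C10G, counted from the transcript's 5′ end and before the coding part, and 66 and 90 bases in gaps of its alignments to Duxbl2 and Duxbl3. The 956-base transcripts of Duxbl1 differed from those of Duxbl2 and Duxbl3 by T40G and C212T, both also before the coding part. No 50-base window of a listed Duxbl2 transcript was particular to that gene, and for Duxbl1 and Duxbl3 the shares were 4.81% and 7.11%. With 100-base windows the shares were 0, 8.73% and 7.50% for Duxbl2, Duxbl1 and Duxbl3. All windows of the Duxbl transcripts were confined to these 3 genes among GENCODE M21 transcripts, so their sum is less open to reads from elsewhere. The split shows in the values: the 365-base transcripts, which are identical in the 3 genes, were listed at the same 0.101 TPM each in GFP-positive GFP line cells and at the same 0.103 TPM each in GFP-positive GFP-Zscan4c cells.

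Summed over the 3 genes, Duxbl was listed at 0 and at 12.3 TPM, then was at 1.87 and 26.0 TPM. With GFP on, the Duxbl sum was 1.59 times the Duxf3 level in the GFP line and 3.53 times in the other line. The Duxbl sum thus stood 2.12 times higher in the GFP-positive cells that carry the fusion, where Duxf3 stood at 0.953 times. On the log2(TPM + 1) scale the differences were 0.97, 0.77 and 1.05 for Duxbl1, Duxbl2 and Duxbl3 and -0.06 for Duxf3. Of the 4 members, 1 was 2-fold or more higher there on this scale, Duxbl3, against 5.71% of 11126 genes at 5 TPM or more in either library. With 1 library per population these differences have no replicate check.

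The line difference in Duxbl lay mostly in short transcripts. In the GFP-positive libraries, GFP line first, the principal forms, which have 5 exons and the full coding frame, summed to 8.27 and 9.96 TPM. The 956-base forms, which have 7 exons and an incomplete frame of 189 codons with the homeobox found by the motif, summed to 1.23 and 7.18 TPM. The forms of 484 to 486 bases, annotated without a coding frame, were listed at 0 and at 6.23 TPM. The forms of 556 to 871 bases, with an incomplete frame of 76 codons, summed to 2.48 and 2.29 TPM, and the 365-base forms to 0.303 and 0.308 TPM. The 956-base and 484 to 486-base forms therefore made up 43.4% and 45.5% of the difference between the lines, and the principal forms 12.4%. All of the Duxbl signal of GFP-negative GFP-Zscan4c cells was listed on the principal forms, at 0.592 to 0.642 TPM each.

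TPM gives weight to short transcripts, since a few reads on a short model count for more. Weighted by transcript length, the Duxbl sum of GFP-positive GFP-Zscan4c cells was 1.58 times that of GFP-positive GFP line cells and 7.65 times that of GFP-negative GFP-Zscan4c cells, against 2.12 and 13.9 times by TPM. Each copy also has a further coding transcript of 2209 to 2248 bases in GENCODE M21, which is not among the listed transcripts, so its level is not known.

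**Figure D3:**
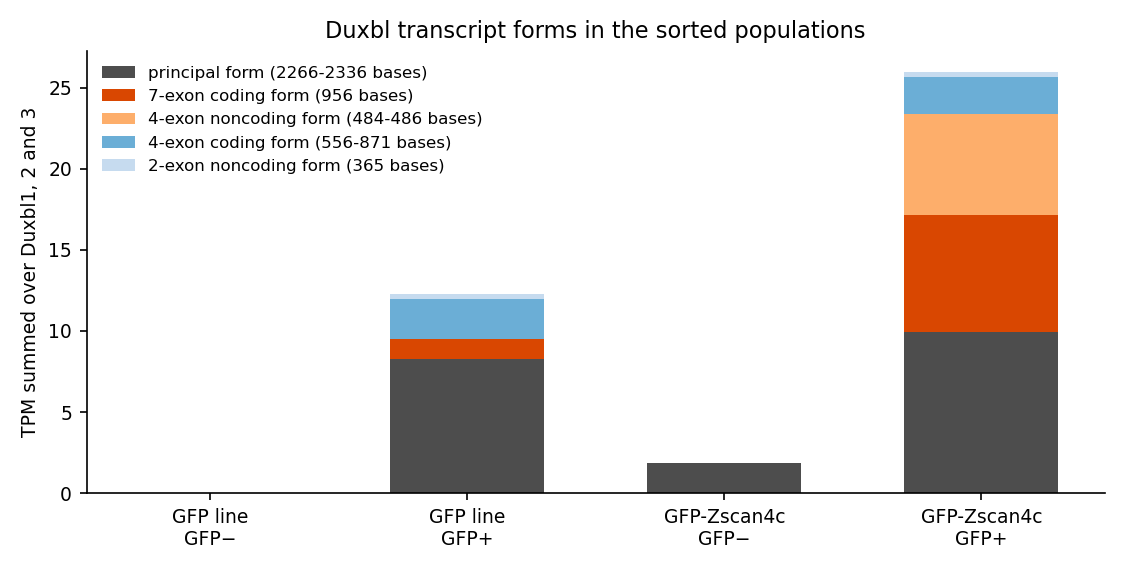
TPM of the Duxbl transcript forms, each summed over the same form in Duxbl1, Duxbl2 and Duxbl3, stacked per library. The principal forms were at 8.27 and 9.96 TPM in the GFP-positive libraries, while the 956-base forms were at 1.23 and 7.18 TPM and the 484 to 486-base forms at 0 and 6.23 TPM.

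Genes interleaved with the Duxbl copies had other patterns. Of the Tmem254 genes, which encode a transmembrane protein and lie upstream of each copy, Tmem254a and Tmem254b each were at 2.84 and 0.603 TPM, then 3.48 and 0.558 TPM. Tmem254c was at 2.84 and 0.472 TPM, then 4.09 and 3.17 TPM. The homeobox genes Cphx1, Cphx2 and Cphx3 in the same repeats were at or below 0.271 TPM in all libraries. Anxa11, an annexin gene before the first copy, was at 59.5 and 47.3 TPM, then 59.5 and 59.4 TPM. The pseudogenes Gm2260 and Gm2274, which lie between the copies, were at 23.8 to 39.6 TPM in all libraries. Of 30 listed genes within 500 kb, 1 of 11 at 5 TPM or more was at least 2-fold higher in the GFP-Zscan4c line, where 8.23% of all genes were. For the GFP line 3 of 12 were higher, against 33.2%, and 2 were lower, Gm7565 and Mir7672, against 7.48%. The gene higher in the GFP-Zscan4c line, Slmap, a membrane anchor protein gene 144 kb away, had 7.43 and 35.5 TPM, then 19.6 and 57.8 TPM, and so was higher in each line by this rule.

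Against all genes, the members were among many that were higher. Among genes at 5 TPM or more in either library, 33.2% of 11062 were at least 2-fold higher with GFP in the GFP line, and Duxf3 was the member that reached 5 TPM there. Restricted to genes above 0 in both libraries, a limit set after seeing the data, that share was 17.3%. For the GFP-Zscan4c line the share was 8.23% of 10981 genes, and all 4 members were among them. The log2 differences were 2.60 for Duxf3 and 2.55 to 2.59 for the Duxbl genes. The Duxbl genes cannot be told apart as sources of RNA, and with their values summed the count was 2 of 2 (902 of 10979 genes). Between the GFP-negative libraries no member reached 5 TPM, and 30.1% of 10672 genes were 2-fold or more higher in the GFP-Zscan4c line. Of the genes 2-fold apart by GFP status, 81.6% were the higher ones in the GFP line and 72.4% in the fusion line. Quantile normalization moved these shares to 51.4% and 56.5%. This scaling gives every library the same distribution of values, which by itself draws such shares towards balance. Median log2 ratios over all genes at 5 TPM or more in either library were 0.19 and 0.14 for GFP status, GFP line first.

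Over both lines, limma with GFP status and line as terms and Benjamini-Hochberg adjustment over 14379 genes called no member. The estimate for Duxf3 was a log2 difference of 2.77 with a standard error of 0.61 and an adjusted p = 0.460 (unadjusted p = 0.0151, limma). For Duxbl1, Duxbl2 and Duxbl3 the limma estimates were 2.44, 2.55 and 2.39 with standard errors of 0.55, 0.58 and 0.55 and adjusted p of 0.463, 0.463 and 0.467. Without the GFP-negative GFP-Zscan4c library limma called 3 members, Duxf3, Duxbl1 and Duxbl2, at adjusted p of 0.0113, 0.0484 and 0.0303, together with 4591 of 13796 genes. Without the GFP-negative GFP line library it called 0, and without either GFP-positive library no member passed the filter, so none was tested. The size of all these estimates depends on the pseudocount. For Duxf3 the estimate was 4.51 with 0.1 TPM and 1.25 with 5 TPM. The Duxbl estimates, which include a library at 0, were 4.40 to 4.59 and 1.03 to 1.125. Over all genes, limma called 0, with a smallest adjusted p of 0.397. Under quantile normalization it called 329 of 13994 genes, none of them a member, and lowered the Duxf3 estimate to 1.83, and with a pseudocount of 5 TPM it called 3 genes. As fitted, 5.9% were higher at an unadjusted p under 0.05, which all 4 members reached. Both GFP-positive libraries exceeded both GFP-negative ones for all 4 members and for 34.3% of the genes. The filter asked for 1 TPM in 2 libraries, and all 4 members passed it through the GFP-positive libraries alone, so they had to differ, and these counts are given as a description. This model has 1 residual degree of freedom, the disagreement between the lines on the GFP difference. The error behind its p-values is that disagreement, drawn towards that of other genes. No label names separate cultures, so it is not an error between replicates.

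**Figure D4:**
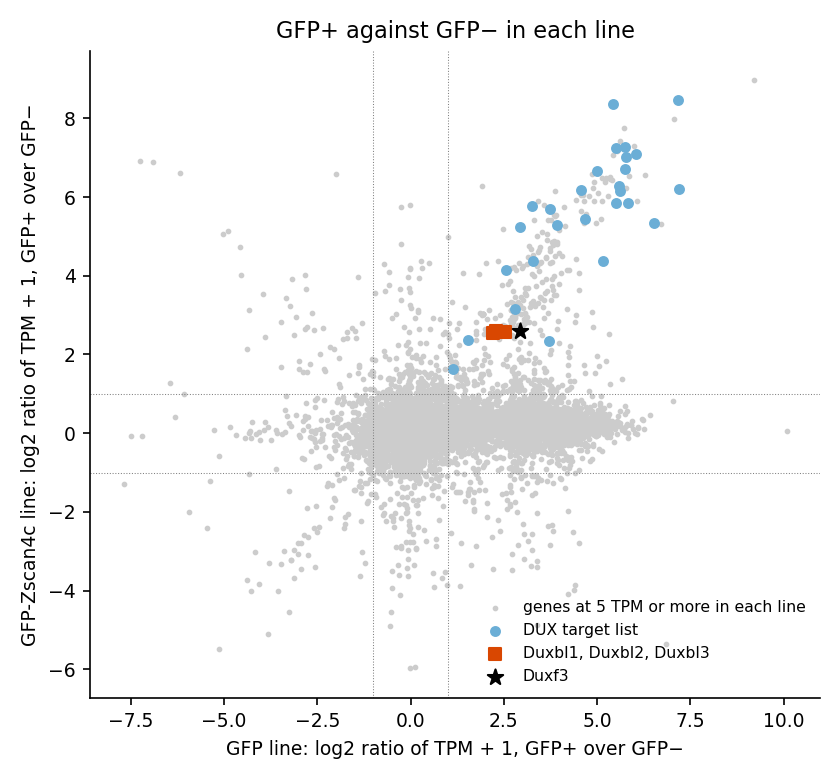
Log2 ratio of TPM + 1 in GFP-positive over GFP-negative cells in the GFP line (x axis) and the GFP-Zscan4c line (y axis), with dotted lines at 2-fold. Grey points are 10245 genes at 5 TPM or more in either library of each line, and blue points the 27 of them on the DUX target list. Orange squares are the Duxbl genes, whose GFP line values start from a listed 0 and stay under 5 TPM. The star is Duxf3 at 2.94 and 2.60.

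Genes known to act upstream of Dux mostly differed by less than 2-fold between the populations. Of 38 listed, 11 were at least 2-fold higher with GFP in the GFP line, 5 of them from a listed 0, and 1 was lower, against 33.2% and 7.48% of all genes. For the GFP-Zscan4c line 4 of 38 were higher, against 8.23%, and the medians were 0.06 and 0.26. Dppa2, whose chromatin protein activates Dux, stood at 31.8 and 85.6 TPM, then 3.02 and 66.1 TPM. Its partner Dppa4 was listed at 0 and at 38.0 TPM, then was at 29.2 and 32.8 TPM. E2f6, a DNA-binding subunit of a Polycomb complex that represses germline genes, was listed at 0 and at 11.9 TPM, then was at 9.40 and 14.0 TPM. Zfp809, a zinc finger repressor of retroviruses, was listed at 0 without GFP in either line and reached 30.1 and 39.4 TPM with GFP. Nelfa, an elongation factor subunit described as a driver of Dux, had 38.6 and 114 TPM, then 42.5 and 224 TPM. It was chosen after its values were seen, as the other gene, beside Dppa2 and Zfp809, that was higher in both lines. It is also on the list of DUX targets. Limma called 0 genes of this or the following lists at an adjusted p of 0.05, as it called 0 of all genes.

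Known targets of DUX were higher wherever they reached 5 TPM. Of 45 genes on the list 39 were listed, and all 29 that reached 5 TPM in the GFP line were at least 2-fold higher with GFP, 14 of them from a listed 0. For the GFP-Zscan4c line all 30 were, 7 of them from a listed 0. The medians were 4.99 and 5.73, and 27 of 27 genes at 5 TPM or more in both lines were higher in both, against 4.11% of 10245 genes. The cells were sorted on the promoter of one of these targets, and the list was drawn up with earlier results of these data known, so this count is a description. Examples are the 2-cell zinc finger genes Zscan4d (1.504 and 108 TPM, then 0.0957 and 362 TPM), Zscan4e (listed at 0 and 146 TPM, then 3.85 and 359 TPM) and Zscan4f (0.174 and 170 TPM, then 0.0470 and 369 TPM). Tmem92, a membrane protein gene, was listed at 0 and at 64.8 TPM, then at 0 and 136 TPM. Between the GFP-positive libraries, 18 of 32 targets were at least 2-fold higher in the GFP-Zscan4c line and 2 were lower. The shares of all genes were 5.71% and 4.05%, and the median was 1.07 against 0.05 for all genes. Duxf3 there was at 0.953 times its GFP line level. Zscan4b, Zscan4d, Zscan4e and Zscan4f differed by 1.11 to 2.35 and Zscan4c by -0.44. The fusion carries Zscan4c sequence, and whether its reads were placed on these relatives was not tested. The list also counts families such as Tdpoz and Usp17l gene by gene, so its genes are not independent.

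Other homeobox genes of the paired class, to which Dux is related, gave a background of transcription factors. Of 54 on the list 30 were listed, and 7 reached 5 TPM in one line (GFP) and 6 in the other. In the GFP line 3 of 7 were 2-fold or more higher, all 3 from a listed 0, and 1 was lower, against 33.2% and 7.48% of all genes. For the GFP-Zscan4c line 1 of 6 was higher, against 8.23%, Rhox13, a homeobox gene of the reproductive Rhox cluster on the X chromosome, at 4.66 and 14.3 TPM. Rhox5 of the same cluster was listed at 0 and at 20.8 TPM and was then at 27.6 and 27.2 TPM, and Gsc, the goosecoid gene, was listed at 0 and at 9.93 TPM, then was at 14.4 and 14.7 TPM. Crxos, an embryonic homeobox gene, was at 18.3 and 28.5 TPM, then 12.5 and 20.9 TPM.

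The genes with the most similar levels were found by Euclidean distance in log2(TPM + 1) over the 4 libraries, among 16218 genes at 1 TPM or more in any library. For Duxf3 they were Brwd3, Fam118b, mt-Tv, Fam124a and St3gal5, at distances of 0.46 to 0.50. Of these, Brwd3 was listed at 0 and at 5.90 TPM, then was at 0.636 and 7.71 TPM. For Duxbl1 the nearest were Duxbl3 at 0.08 and Duxbl2 at 0.23, followed by Gm23344, Cyp4f17 and Mtif3 at 0.33 to 0.39. Duxbl2 and Duxbl3 had the other Duxbl genes, Mtif3, Brwd3, Pde3b, Cyp4f17 and Gm23344 among their nearest. The Duxbl genes cannot be told apart as sources of RNA, so their nearness to each other is not a separate result. With 4 libraries, such likeness is a description of level and not more.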

How the data were processed

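Poly-A RNA was sequenced from 4 sorted populations, 1 library each. The authors deposited TPM per transcript. Per the submitters' processing notes, the tools were CASAVA, HISAT2 2.1.0 and StringTie 1.3.5, with GRCm38 (mm10). Options, annotation release and read length are not given here. Listed TPM summed to 66.6% to 69.1% of the full TPM scale, so the tables hold part of each library.

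TPM were summed per symbol with pandas 2.3.3 in Python 3.11.15. Pairs of libraries were compared on log2(TPM + 1), without a test, by a 2-fold rule among genes at 5 TPM or more in either library. Two-sided tests over all genes reaching 1 TPM in 2 or more libraries used limma 3.58.1 under R 4.3.3, with eBayes set to trend and robust, and were checked on simulated data. GENCODE M21, matched by transcript ID, gave positions, lengths and sequences for all 17 member transcripts and for 58388 of all listed transcripts. Transcripts were aligned with Biopython 1.88. Promoter windows are from RefSeq (GRCm38.p6).

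Named genes were all members, up to 4 per list by the largest mean log2 ratio at 5 TPM or more, listed genes within 500 kb, and the 5 nearest patterns per member. Members and lists were chosen with earlier results of these data known. Alternatives were pseudocounts of 0.1 and 5 TPM, no filter, median-ratio and quantile scaling, the highest transcript per gene, the Duxbl genes as 1 value, no line term, and leaving out each library. Length weighting and a limit to genes above 0 were added after seeing the data.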

Additional observations from a re-analysis of the deposited data

How the results depend on the processing

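No direction of a member's difference past 2-fold or of its limma estimate turned under any alternative run. Of 210 gene values recomputed, 190 stayed on the same side of 2-fold or of an adjusted p of 0.05 in limma, 12 fell below it and 8 passed it. The number of members at least 2-fold higher with GFP in the GFP line was 1, where 3676 of 11062 genes were higher. Counts in brackets below are those of all genes. The number became 4 with no filter (5786 of 24190) and 2 of 2 with the Duxbl genes summed (3677 of 11063). With the highest transcript of each gene (4124 of 10389) it was 0, as no member reached 5 TPM. In the GFP-Zscan4c line the number was 4 (904 of 10981). It became 2 of 2 with the Duxbl genes summed, where fewer genes are tested (902 of 10979), and 0 with the highest transcript (1023 of 10246). Between the GFP-positive libraries the count of members higher in the GFP-Zscan4c line was 1 (635 of 11126). It became 2 with a pseudocount of 0.1 TPM (719 of 11126) and 0 with a pseudocount of 5 TPM (348 of 11126). With the highest transcript (819 of 10413) or length weighting (703 of 10879) it was also 0. The log2 difference of the Duxbl sum was 0.62 under length weighting and 0.24 with the highest transcript, against 1.02. Between the GFP-negative libraries the uncalled difference of Duxf3 went from 0.28 to -0.98 under quantile normalization. In limma over both lines, leaving out a GFP-negative library, with GFP status as the only term, gave 0 to 3 members called, with the lone library of an arm assumed to vary like the others. Leaving out either GFP-positive library left no member past the filter and gave no test. The 3 calls came without the GFP-negative GFP-Zscan4c library, which leaves the library with 48.4% of symbols at 0 as the only GFP-negative one, and 4591 of 13796 genes were called there. Without the sparse library itself the Duxf3 estimate was 2.63 with an adjusted p of 0.2375 in limma. In the GFP line, the share of higher genes among those 2-fold apart moved from 81.6% to 51.4% under quantile normalization. Among genes above 0 that share was 65.6%. In the GFP-Zscan4c line it moved from 72.4% to 56.5% under quantile normalization, which by its method draws such shares towards balance. The line term of this limma model pairs the populations of a line, and without it limma called 0 members, with an adjusted p of 0.2448 for Duxf3. Depth is unknown, so no counting error can be given.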
